A study of Homo sapiens with 4 samples.

Results

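LINC00473 is a long noncoding RNA that is induced by cyclic AMP (cAMP), and this account follows it together with 9 protein-coding genes of the cAMP/CREB response: CREM, CREB1, CRTC1, NR4A1, NR4A2, NR4A3, PDE4D, PDE4B and SIK1. The 10 genes were selected on 2 grounds. LINC00473 was chosen by its difference between the populations compared here, and the other 9 by their known place in the pathway. The value that chose LINC00473 is therefore given as a description. The members were all probe sets that the array's platform annotation assigns to 1 of these genes alone, which gave 36 probe sets for 10 genes, among 19775 genes in all.

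The RNA came from PLC8024 cells, a human hepatocellular carcinoma line, which had been separated by flow sorting into CD133+ and CD133- populations. CD133 is a membrane glycoprotein by which cells with tumour-initiating capacity are enriched from liver cancers. Each population was deposited in 2 processings of oligonucleotide array values, MAS5 intensities and RMA values on the log2 scale, and there was 1 array per population and processing. The labels do not say whether a population's MAS5 and RMA values derive from a single array. No genotype, treatment or time distinguishes the populations in the labels. There was no replicate, so no test was run, no p-value is given, and no difference below carries an error between sorts or cultures. In a bulk sample of this kind, fewer cells that carry a transcript and less RNA per cell cannot be told apart.

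In the cAMP pathway, receptors coupled to the stimulatory G protein activate adenylyl cyclases, and the cAMP they make releases the catalytic subunits of protein kinase A (PKA). PKA phosphorylates the transcription factor CREB, which binds the cAMP response element (CRE) in promoters and acts with the CRTC coactivators. Salt-inducible kinases hold CRTC proteins in the cytoplasm, and phosphodiesterases degrade cAMP. Several target genes, among them those of SIK1, PDE4 enzymes and the CREM-derived repressor ICER, feed back on the pathway. In liver the pathway carries the glucagon signal of fasting, and LINC00473 is known as a CREB and CRTC target in lung tumours that lack the kinase LKB1.

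The promoter window of LINC00473 is shown because it carries CRE cores. RefSeq windows of 300 bases, from 250 bases before to 50 after an annotated start, were searched on both strands for the full palindromic CRE, TGACGTCA, and for its core, TGACG, which reads CGTCA on the other strand. A full CRE contains 2 overlapping cores. The window of LINC00473 lies on the minus strand at chr6:165987990-165988289 of GRCh38.p14. It holds 2 cores, whose first bases lie at -167 and -92 from the start, and no full CRE. Cores are in capitals.
LINC00473: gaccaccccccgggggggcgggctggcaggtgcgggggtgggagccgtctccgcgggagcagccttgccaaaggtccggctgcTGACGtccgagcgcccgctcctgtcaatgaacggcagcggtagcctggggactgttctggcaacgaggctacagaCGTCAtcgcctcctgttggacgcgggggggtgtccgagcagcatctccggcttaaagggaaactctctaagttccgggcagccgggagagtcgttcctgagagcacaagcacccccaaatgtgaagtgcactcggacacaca

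Other members with cores are shown for comparison, each as the stretch from 10 bases before its first core to 10 after its last. The window of NR4A3 (plus strand, chr9:99821635-99821934) holds 4 cores and that of SIK1 (minus strand, chr21:43427082-43427381) holds 3. CREM has 7 windows, and a full CRE stands in 2 overlapping ones at an internal start, of which chr10:35195600-35195899 on the plus strand is shown. Internal CREM starts are known to give the cAMP-inducible repressor ICER.
NR4A3: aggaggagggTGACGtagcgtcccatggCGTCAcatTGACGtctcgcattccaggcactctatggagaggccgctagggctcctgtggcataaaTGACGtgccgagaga
SIK1: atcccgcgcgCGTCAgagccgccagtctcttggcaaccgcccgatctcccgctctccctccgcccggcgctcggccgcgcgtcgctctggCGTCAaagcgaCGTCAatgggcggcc
CREM: agctgcacatTGACGTCAgctccgagtc

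Among the windows of the other members, 1 of 8 windows of PDE4D held a single core. None was found in the windows of CREB1, CRTC1 and NR4A1 or in the 6 windows of PDE4B. NR4A2 was not analysed here for motifs. A core is a common sequence: 24.6% of all 35116 promoter windows hold at least 1 and 6.02% hold 2 or more, while 1.85% hold the full CRE. A match is a description of these letters and not a bound site.

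**Figure D1:**
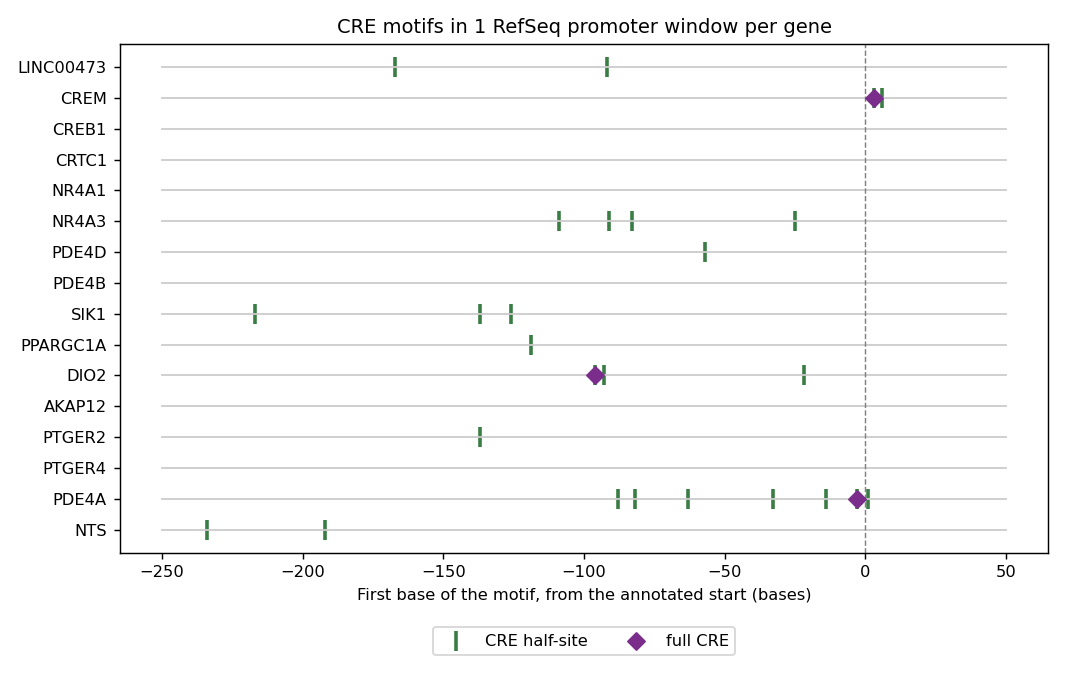
Position of CRE cores (green bars, called half-sites in the legend) and full CREs (purple diamonds) in 1 RefSeq promoter window per gene, by the distance of the first base from the annotated start. The members other than NR4A2 are drawn, and so are PPARGC1A, DIO2, AKAP12, PTGER2, PTGER4, PDE4A and NTS. Other pathway genes named below were not drawn. Where a gene has several windows, the one with the most matches is drawn. LINC00473 holds 2 cores, at -167 and -92 from its start, and full CREs stand in CREM, DIO2 and PDE4A.

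LINC00473 was higher in the CD133+ population. Its 1 probe set had RMA values of 10.33 in CD133+ against 6.32 in CD133- cells, a difference of 4.004 on the log2 scale or 16.0-fold. The MAS5 intensities were 4586 in CD133+ against 252.1 in CD133- cells, which is 18.2-fold. Both processings gave a difference of about the same size. The floor was each population's median RMA value, 5.16 in CD133+ and 5.14 in CD133-. A probe set was called above it when the higher of its 2 RMA values reached the floor of that population. LINC00473 passed the floor in both populations. Among the 13116 genes above the floor its RMA difference was the third highest. PROM1, the gene of CD133, had RMA values of 10.35 in CD133+ against 6.04 in CD133- cells, so the sorted marker differed in the direction of the labels.

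The genes most like LINC00473 were those with the smallest Euclidean distance to it over the 4 values, RMA and log2 MAS5 in each population. They were PROM1 at a distance of 0.477 and IGFBP4, whose product binds insulin-like growth factors, at 0.544, followed by UCHL1, NMB and CDH1 at 0.878, 1.22 and 1.34. NMB, which encodes the peptide neuromedin B, had RMA values of 9.67 in CD133+ against 6.92 in CD133- cells. CDH1, which encodes E-cadherin, had 9.43 in CD133+ against 6.62 in CD133- cells. The likeness rests on 2 populations with 1 array per population and processing.

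None of the 6 analysed neighbours of LINC00473 on chromosome 6 was counted, though TBXT, PRR18 and C6orf118 differed by 2-fold in MAS5 alone, at 2.62, 1.98 and -1.23. In the RefSeq annotation LINC00473 lies within the span of PDE10A, which encodes a phosphodiesterase for cAMP and cGMP, on the same strand. All 3 probe sets of PDE10A were below the floor in both populations, and the one that represents the gene had an RMA value of 4.47 in each. On the same side, C6orf118 was below the floor, and QKI, an RNA-binding protein gene, had 10.29 in CD133+ against 10.39 in CD133- cells. On the other side, TBXT, the brachyury gene, had RMA values of 6.02 in CD133+ against 5.82 in CD133- cells, and LOC101929297 and PRR18 were below the floor. The MAS5 intensities of TBXT were 127.3 in CD133+ against 20.7 in CD133- cells, beside an RMA difference of 0.20.

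The other 9 members did not follow LINC00473. The probe set of highest mean RMA value stood for its gene. To be counted, a gene above the floor had to show a difference of 2-fold or more in RMA and in MAS5 alike, with 1 sign. All 10 members were above the floor, 1 was counted, and that was LINC00473. The background over all 13116 genes above the floor was 3.34% counted, of which 2.25% were higher and 1.09% lower in CD133+ as shares of the same genes. Of the 35 probe sets of the other 9 members 30 were above the floor and 0 were counted, where 2.83% of all probe sets above the floor were. With so few members, a count of 0 is near what that background gives. The RMA differences of the 9 genes ran from -0.70 for PDE4D to 0.54 for PDE4B, with 5 above and 4 below 0 and a median of 0.0046, beside a median of 0.00 over all genes above the floor.

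As a measure of spread between probe sets, the RMA differences of 2 probe sets of one gene had an SD of 0.35 around each other in 6170 genes, and 5% of these gaps exceeded 0.697. In MAS5 the SD was 0.786. Differences of the other 9 members are set against this spread, which leaves out that between sorts and arrays.

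The transcription factors stood at much the same level in both populations, and their coactivator did so in RMA. CREB1, the factor that PKA activates, had RMA values of 7.997 in CD133+ against 7.992 in CD133- cells. Its 7 probe sets, all above the floor, had RMA differences from -0.23 to 0.24. CREM, which encodes activators as well as ICER, had 8.50 in CD133+ against 8.37 in CD133- cells. The RMA differences of its 5 probe sets above the floor lay between 0.037 and 0.14, all within that spread between probe sets, and its sixth probe set was below the floor. CRTC1, a coactivator of CREB, had RMA values of 7.21 in CD133+ against 7.06 in CD133- cells. The second CRTC1 probe set differed by 0.33 in RMA, and in MAS5 the pair disagreed in sign, at 0.80 and -0.51.

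SIK1, the inducible kinase that restrains CRTC proteins, had RMA values of 11.41 in CD133+ against 11.49 in CD133- cells and intensities in MAS5 of 10073 in CD133+ against 9433 in CD133- cells. The second SIK1 probe set differed by -0.18 in RMA. RefSeq lists a second gene under the synonym SIK1B, so these probe sets can share signal with that copy. SIK1 carries more cores in its window than LINC00473, and its difference was within that spread between probe sets.

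The NR4A genes encode orphan nuclear receptors that rise within an hour or so of a cAMP signal in many cells. NR4A2 was lower in CD133+ in every probe set and in both processings. Its RMA values were 9.15 in CD133+ against 9.72 in CD133- cells for the representative probe set, 8.95 in CD133+ against 9.65 in CD133- cells for the second, and 7.99 in CD133+ against 8.98 in CD133- cells for the third. The 3 probe sets had RMA differences from -0.99 to -0.57 and MAS5 differences from -0.81 to -0.61. Each missed the 2-fold limit in both processings. All 3 exceeded 1 SD of the spread between probe sets in RMA, and in MAS5 only the representative one did. The difference of the gene was lower than that of all but 5.54% of genes above the floor.

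NR4A1 had RMA values of 8.37 in CD133+ against 8.81 in CD133- cells and MAS5 intensities of 1066 in CD133+ against 1108 in CD133- cells. Its 3 probe sets had RMA differences from -0.44 to -0.12. Their MAS5 differences ran from -2.75 in an _x_at probe set, at intensities of 46.2 in CD133+ against 309.7 in CD133- cells, to 0.27, so MAS5 gave no common direction. The _x_at probe set was the only one of the 30 with a MAS5 difference of at least 2-fold, and none of them reached 2-fold in RMA. NR4A3, with 4 CRE cores in its window, had RMA values of 6.15 in CD133+ against 6.05 in CD133- cells in its 1 probe set above the floor. Its other 2 probe sets were below the floor.

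The phosphodiesterases PDE4B and PDE4D, which degrade cAMP and are induced by it, lay on opposite sides of 0. PDE4B had RMA values of 8.71 in CD133+ against 8.17 in CD133- cells in one probe set and 7.89 in CD133+ against 7.58 in CD133- cells in another. The MAS5 intensities of the first were 1657 in CD133+ against 1120 in CD133- cells, and the third probe set was below the floor. PDE4D had RMA values of 6.97 in CD133+ against 7.66 in CD133- cells in its representative probe set. All 5 of its probe sets above the floor were lower in CD133+ in both processings, with RMA differences from -0.70 to -0.27 and MAS5 differences from -0.76 to -0.38. Of these, 1 passed the floor through CD133- alone, at RMA values of 5.08 in CD133+ against 5.58 in CD133- cells. The sixth PDE4D probe set was below the floor and had an RMA difference of 0.53. PDE4D thus had a lower difference than all but 3.24% of genes above the floor, and PDE4B a higher one than 93.0%.

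**Figure D2:**
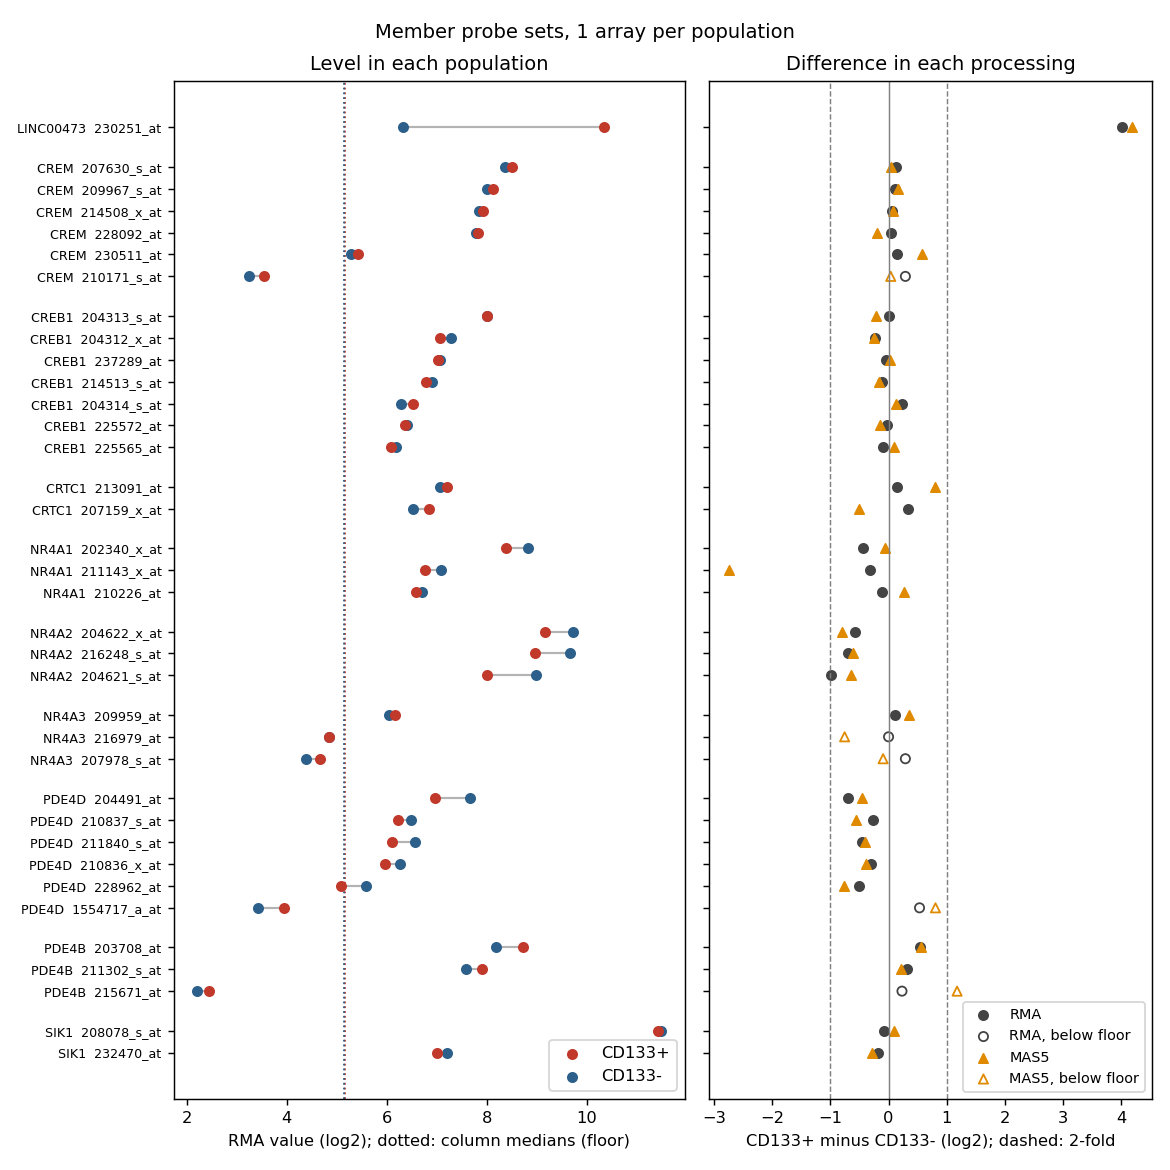
Left, RMA value (log2) of each of the 36 member probe sets in CD133+ (red) and CD133- (blue) cells, with each column's median dotted. Right, the difference CD133+ minus CD133- in RMA (circles) and MAS5 (triangles) on the log2 scale, open symbols standing for probe sets below the floor. LINC00473 lies near 4 in both processings, and the RMA differences of all other member probe sets above the floor lie between -0.99 and 0.54.

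The rest of the pathway was read through 10 lists with 145 analysed genes besides the members, of which 105 were above the floor. The count gave 6 of these as higher and 2 as lower in CD133+, which is 7.62% against 3.34% of all genes. Among the counted genes, PTGER2, PTGER4 and PCK1 passed the floor only through the population in which they were higher. The same floor rule held for all genes. The lists were drawn up when the differences of NTS and PCK1 were already known from earlier results of these arrays, so this share is no independent evidence. Without these 2 genes, a setting added after the values were seen, 6 of 103 were counted. The median RMA difference over the 105 genes was 0.0031, beside 0.00 over all genes, and 53 were above and 50 below 0. Of all 13116 genes above the floor 6319 were above and 6548 below 0, 2.25% were counted as higher and 1.09% as lower. These values are the background for each list below.

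Upstream, the count took in 2 of 18 receptor and G protein genes above the floor, both higher in CD133+ and both receptors for prostaglandin E2 that couple to the stimulatory G protein. PTGER4, the EP4 receptor gene, had RMA values of 6.74 in CD133+ against 4.85 in CD133- cells and MAS5 intensities of 403.2 in CD133+ against 162.6 in CD133- cells. PTGER2, the EP2 receptor gene, had RMA values of 6.38 in CD133+ against 4.78 in CD133- cells and MAS5 intensities of 274.7 in CD133+ against 134.8 in CD133- cells. Neither gene reached the floor in CD133- cells, so no fold is given. Under a floor at the 75th percentile neither gene was counted. With 50 added to the MAS5 intensities PTGER2 was no longer counted, at a MAS5 difference of 0.81, and with the median over probe sets PTGER4 was not, at an RMA difference of 1.24, its other probe set being below the floor with a MAS5 difference of -0.63. The list had 16 of 18 genes above 0 and a median of 0.18, with RMA differences of 0.72 for the melanocortin receptor MC1R and 0.52 for the adenosine receptor ADORA2B, neither counted.

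Adenylyl cyclases and PKA subunits had no counted member among 6 and 9 genes above the floor, with medians of 0.048 and 0.00. ADCY9 had an RMA difference of 0.65 but a MAS5 difference of -0.02, and ADCY6, ADCY4 and ADCY1 had RMA differences of 0.20, 0.061 and 0.035. PKIA, which encodes a PKA inhibitor peptide, had RMA values of 7.18 in CD133+ against 6.42 in CD133- cells and a MAS5 difference of 1.46. The regulatory subunit PRKAR1A and the catalytic subunit PRKACB had RMA differences of -0.43 and -0.36. PRKAR1B, another regulatory subunit, differed by 0.32 in RMA and by 2.05 in MAS5.

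AKAP12, a scaffold that anchors PKA near the cell membrane, was the 1 counted gene among 9 anchoring proteins above the floor. Its RMA values were 9.60 in CD133+ against 7.58 in CD133- cells, which is 4.06-fold, and its MAS5 intensities were 3192 in CD133+ against 625.4 in CD133- cells. Its other 3 probe sets above the floor had RMA differences from 1.73 to 2.17. The one at 2.17 had RMA values of 5.69 in CD133+ against 3.52 in CD133- cells, so it passed the floor through CD133+ alone. The remaining AKAP12 probe set was below the floor in both populations, with an RMA difference of 0.096. AKAP1, AKAP11 and AKAP8 had RMA differences of -0.53, 0.45 and -0.23.

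Of 8 other cAMP-degrading phosphodiesterases above the floor, PDE4A was counted as higher. Its representative probe set had RMA values of 7.13 in CD133+ against 5.83 in CD133- cells, which is 2.47-fold. In RMA the difference rests on that probe set: its other 2 probe sets above the floor had RMA differences of -0.10 and 0.28. The median over all 5 was -0.058, the value of a probe set below the floor. In MAS5 all 5 were higher in CD133+, with differences from 0.58 to 1.84. Outside the representative probe set these came from intensities of 75.2 or less. PDE4A therefore has no settled direction in RMA here. PDE7B had an RMA difference of -0.67, PDE1B one of 0.47 and PDE7A one of -0.09. For PDE1B the CD133- value was under the floor, and the MAS5 intensities were 19.2 in CD133+ against 11.8 in CD133- cells. The window of PDE4A (plus strand, chr19:10416523-10416822), shown for its run of cores around a full CRE, holds 7 cores.
PDE4A: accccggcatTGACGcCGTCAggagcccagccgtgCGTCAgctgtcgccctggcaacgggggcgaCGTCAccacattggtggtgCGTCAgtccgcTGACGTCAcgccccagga

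None of 14 other CREB and ATF factors, coactivators and partners above the floor was counted, and their median was -0.0029. ATF7, a CRE-binding factor, had RMA values of 8.43 in CD133+ against 7.50 in CD133- cells and missed the RMA limit at 0.93. CREB3L3, a liver factor of the same family, had 4.74 in CD133+ against 5.86 in CD133- cells, with the CD133+ value under the floor. Its RMA difference was -1.12, and it missed the MAS5 limit at -0.95. CREB3 and CREB3L2 had RMA differences of 0.39 and 0.38. None of 15 LKB1, SIK and CRTC regulators was counted either, with a median of -0.20 and 12 of 15 below 0. STK11, the LKB1 gene, chosen after its values were seen, had RMA values of 7.02 in CD133+ against 7.04 in CD133- cells. PRKAA2 and PRKAA1, catalytic subunits of the kinase AMPK, had RMA differences of 0.96 and -0.64. The other 2 PRKAA1 probe sets above the floor went the other way, at 0.16 and 0.39. SIK2 had an RMA difference of -0.51 and CAB39L, an LKB1 partner, one of 0.37.

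Known CREB targets outside the members were read in 3 lists, whose differences from each other were not tested. Of 12 early cAMP-induced genes above the floor 10 had a difference below 0, the median was -0.31 and none was counted. Of all 13116 genes above the floor, 6548 were below 0. FOS, DUSP1, KLF4 and ATF3 differed by -0.90, -0.86, -0.70 and -0.63 in RMA, and by -0.90, -0.88, -0.83 and -0.37 in MAS5. The products of these genes are transcription factors and, for DUSP1, a phosphatase of MAP kinases.

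All 7 fasting-response targets of liver above the floor had RMA differences below 0, with a median of -0.31, and 2 were counted as lower. Among all genes above the floor 1.09% were counted as lower. PCK1, the gluconeogenic enzyme that CREB induces in fasted liver, had RMA values of 4.62 in CD133+ against 7.15 in CD133- cells, with the CD133+ value under the floor. PPARGC1A, the coactivator PGC-1alpha, had 6.27 in CD133+ against 7.40 in CD133- cells, which is 2.19-fold lower, and MAS5 intensities of 233.5 in CD133+ against 537.9 in CD133- cells. With the median over its probe sets PPARGC1A was no longer counted, at -0.55, its other probe set being below the floor in both populations. IRS2 and SIRT1 had RMA differences of -0.53 and -0.31. Of 13 hepatocyte markers above the floor, the count gave 4 (ALB, AFP, APOA1 and GPC3) as lower and none as higher, while 9 were not counted, and the median was -0.28. ALB, the albumin gene, had RMA values of 7.70 in CD133+ against 11.12 in CD133- cells, and AFP, the alpha-fetoprotein gene, 9.05 in CD133+ against 11.83 in CD133- cells. SERPINA1, APOB and TF stood at 12.42 or above in both populations, so transcripts of liver secretory proteins were present in both, and the summed MAS5 intensities of the list were 181145 in CD133+ against 211708 in CD133- cells. Their part in the difference of the liver targets was not tested.

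Among neuroendocrine and placental targets 7 were above the floor, 2 of them higher by the count, and the median was 0.51. DIO2, the deiodinase that activates thyroid hormone, had RMA values of 6.87 in CD133+ against 5.33 in CD133- cells, which is 2.91-fold, and MAS5 intensities of 591.2 in CD133+ against 160.9 in CD133- cells. Its other 3 probe sets above the floor had RMA differences from 0.28 to 1.28. DIO2 was below the floor, and so not counted, under a 75th percentile floor and again without _x_at and _s_at probe sets. NTS, the neurotensin gene, was the other counted gene, with RMA values of 13.39 in CD133+ against 11.80 in CD133- cells and a difference of 1.59. SCG2, which encodes a secretory granule protein, had an RMA difference of 0.60 and BDNF one of -0.55. For BDNF the CD133+ value was under the floor and the MAS5 difference was 0.15. The other 11 analysed genes of this list were below the floor. The window of DIO2 (minus strand, chr14:80212129-80212428) is shown because DIO2 had the largest RMA difference among full-CRE genes counted as higher.
DIO2: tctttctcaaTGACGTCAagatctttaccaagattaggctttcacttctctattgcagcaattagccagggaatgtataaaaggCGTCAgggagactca

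**Figure D3:**
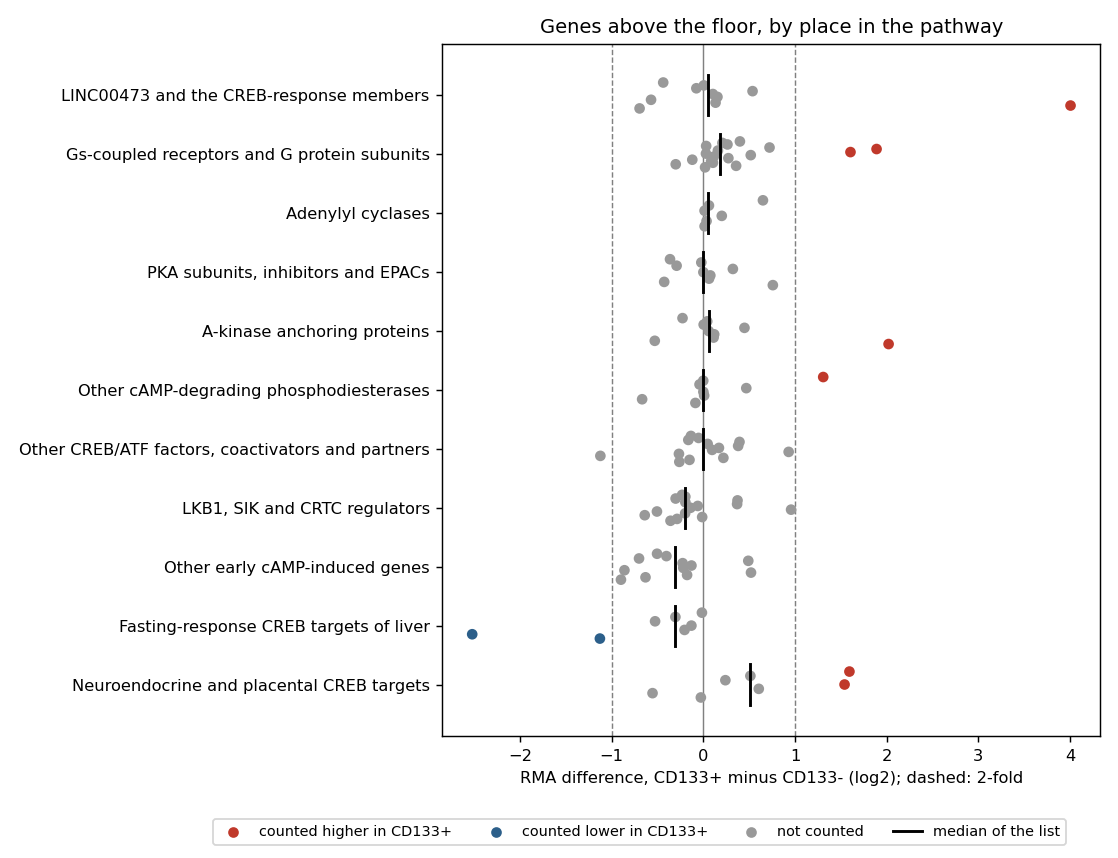
RMA difference (CD133+ minus CD133-, log2) of each gene above the floor, by place in the cAMP/CREB pathway, with the median of each list as a black bar and 2-fold limits dashed. Red and blue points are counted as higher and lower in CD133+. LINC00473, at 4.004, stands apart from the other members, and the counted pathway genes fall in 5 of the 10 lists.

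**Figure D4:**
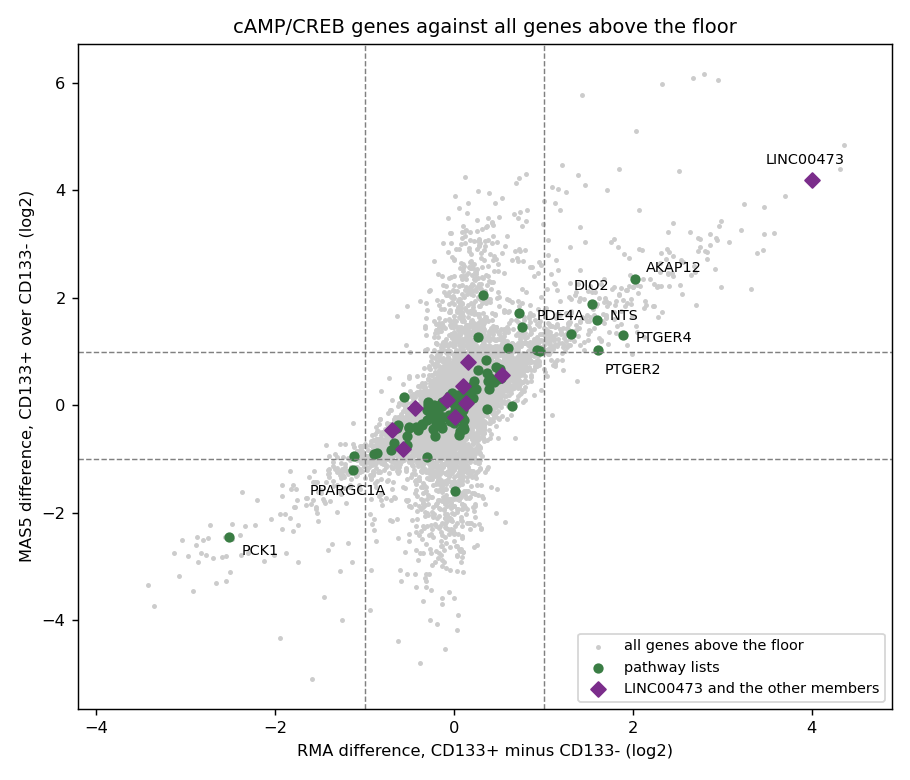
RMA difference against MAS5 difference (both CD133+ against CD133-, log2) for all 13116 genes above the floor (grey), the genes of the pathway lists (green) and the members (purple), with 2-fold limits dashed. LINC00473 lies at 4.004 in RMA and 4.19 in MAS5, while the other 9 members lie inside the limits of both axes.

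Genes with a CRE in their promoter were then taken as a group, whatever their known function. Of 10600 genes above the floor with a promoter window, 3.22% were counted. Of the 386 among them with a full CRE 6 were higher and 3 lower by this count, which is 2.33%, and their median RMA difference was -0.03. Of the 4161 with at least 1 core 84 were higher and 33 lower, which is 2.81%, with a median of -0.02. The difference between these shares was not tested, and that of full-CRE genes depended on the setting: it was 7.51% in MAS5 alone, against 13.3% of all genes above the floor, and 1.37% without _x_at and _s_at probe sets, against 3.44%. Genes with several windows had more chances to hold a match.

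The counted genes with a full CRE and the largest differences were DIO2, SULT1C4 and PDE4A among the higher, and MUC13, HLF and SPAG6 among the lower. SULT1C4, a sulfotransferase gene, had RMA values of 7.51 in CD133+ against 6.19 in CD133- cells. MUC13, a membrane mucin gene, had 6.58 in CD133+ against 8.34 in CD133- cells. HLF, a transcription factor gene of liver with daily rhythm, had 6.71 in CD133+ against 8.03 in CD133- cells, and SPAG6, a gene of the ciliary axoneme, had 6.43 in CD133+ against 7.69 in CD133- cells.

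Markers of other cells were checked beside these results. Of 10 analysed leukocyte markers 6 were above the floor, and the defining marker PTPRC (CD45) was below it, at RMA values of 3.01 in CD133+ against 2.94 in CD133- cells. LYZ, the lysozyme gene, which epithelia also express, was the 1 counted leukocyte marker, with 11.14 in CD133+ against 9.42 in CD133- cells. Of 10 endothelial markers 2 were above the floor, and PECAM1 was counted as lower, with 6.11 in CD133+ against 7.87 in CD133- cells, while CDH5 and VWF were below the floor. None of the 5 fibroblast and 3 erythroid markers above the floor was counted. The summed MAS5 intensities of the leukocyte list were 10820 in CD133+ against 4569 in CD133- cells, mostly LYZ, and those of the endothelial list 779.8 in CD133+ against 1510 in CD133- cells. The sums were 1105 in CD133+ against 635.5 in CD133- cells for the fibroblast list and 432.9 in CD133+ against 302.8 in CD133- cells for the erythroid list. Unlike the counts, these sums take in all analysed genes of a list, also those below the floor, whose intensities cannot be told from background. The part of these markers in the differences of LINC00473 and the pathway genes was not tested.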

How the data were processed

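Expression was measured on oligonucleotide arrays in 1 CD133+ and 1 CD133- population of PLC8024 cells. The authors deposited MAS5 intensity values on a linear scale in 2 samples and RMA values on the log2 scale in the other 2, per the labels. The submitters' processing notes name GCOS, MAS5 and RMA, with versions not given in the sources used here. RMA and MAS5 were treated as 2 processings and never as replicates. Grouping followed the sample titles. With 1 array per population and processing, precision is limited by the number of arrays and no test was possible.

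Of 54675 probe sets, 41097 had 1 gene in GEO's platform annotation, 1801 several and 11777 none or no entry, and those with several or none were left unnamed. Current symbols came through gene IDs from a RefSeq table of GRCh38.p14 for 41043 probe sets. No build is named for the array itself. Promoter windows came from RefSeq, GRCh38.p14. The floor, the count rule and the representative probe set are given where first used. Genes named were all members, PROM1, counted genes and up to 4 genes of largest absolute RMA difference per list, the 5 nearest genes to LINC00473, its 3 analysed neighbours on each side and 3 counted full-CRE genes in each direction. SERPINA1, APOB, TF, PTPRC, CDH5 and VWF fall outside this rule and were chosen after their values were seen. The members, lists and rules were chosen with earlier results of these data known. The count rule was tested on simulated data with shifts larger than the 2-fold limit and with noise drawn separately for RMA and MAS5. That test therefore does not show how the rule treats differences near the limit or errors shared by both processings. Computation used Python 3.11.15, numpy 2.4.6 and pandas 2.3.3. Alternatives were RMA alone, MAS5 alone, a MAS5 pseudocount of 50, a floor at the 75th percentile, no floor, a 1.5-fold limit, the median over probe sets, no _x_at or _s_at probe sets, and centring on the median.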

Additional observations from a re-analysis of the deposited data

How the results depend on the processing

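LINC00473 was the only counted member under all 9 alternatives. It has 1 probe set, so only MAS5 alone, the pseudocount and centring could move its difference, which was 4.19, 3.94 and 4.02 under them. The count of all genes was 1739 in MAS5 alone and 1245 at 1.5-fold, against 438, and the count of genes with a full CRE 29 and 31, against 9. Without _x_at and _s_at probe sets 4 full-CRE genes were counted, with fewer genes above the floor. Pathway genes counted numbered 16 in MAS5 alone, 18 at 1.5-fold, 5 under a floor set at the 75th percentile, 5 with the median over probe sets, against 8. At 1.5-fold FOS, DUSP1 and KLF4 were among those counted as lower, and no member besides LINC00473 was counted. PDE4A changed sign with the median over probe sets, to -0.058 in RMA, where its probe sets disagree. That median is the value of a probe set below the floor. For 17 other genes, 4 alternatives (MAS5 alone, the pseudocount, the median over probe sets and no _x_at or _s_at probe sets) changed the difference in 51 cases. The limit for a move was 0.35, the SD between probe sets of a gene in RMA. MAS5 alone and the pseudocount set a MAS5 difference against an RMA one under this same limit, though the SD in MAS5 was 0.786. The difference moved by less than the limit in 40 of the 51 cases and by more in 10. In the remaining 1, PDE4A, a counted gene changed sign. Sign changes were looked for in counted genes alone, and uncounted genes near 0 changed sign within the 40. CREB1 went from 0.0046 to -0.21 and SIK1 from -0.08 to 0.09 in MAS5 alone. PCK1, whose 1 probe set is an _s_at, has no value without such probe sets. No paired analysis was possible because the labels give no replicate numbers and each population has 1 array. With no detection calls used here, values near the floor cannot be told from background.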

Other observations

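Among targets known from placenta and brain, 2 hormone genes were far above the floor in both populations, chosen after their values were seen. CRH, which encodes corticotropin-releasing hormone, had RMA values of 13.62 in CD133+ against 13.38 in CD133- cells and MAS5 intensities of 53254 in CD133+ against 43322 in CD133- cells. CGA, which encodes the alpha subunit shared by glycoprotein hormones and has a CRE-driven promoter in placenta, had RMA values of 12.20 in CD133+ against 11.69 in CD133- cells. Neither was counted, at RMA differences of 0.24 and 0.51.

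GNAS, which encodes the stimulatory G protein's alpha subunit, had RMA values of 12.65 in CD133+ against 12.25 in CD133- cells. NONO, which encodes a protein known to bind LINC00473, had 12.48 in CD133+ against 12.61 in CD133- cells. PKIB, another PKA inhibitor gene, had 11.27 in CD133+ against 11.21 in CD133- cells, while its other probe set above the floor differed by 0.79 in RMA. These 3 genes too were chosen after their values were seen, and none was counted.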
